A study of Mus musculus with 6 samples.

Results

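Ly6a, Ly6c1, Ly6c2, Ly6e, Thy1, Cd52, Cd48 and Cd24a encode small proteins of the T cell surface that are held in the membrane by a glycosylphosphatidylinositol (GPI) lipid anchor. These 8 genes were chosen by name, as members of the Ly6 family and other GPI-anchored surface genes of T cells, and all 8 were among the 31017 genes of the count table. Earlier results of these data were known when the choice was made. RNA was sequenced from mouse Th17 cells, helper T cells that secrete interleukin 17, which had been differentiated in culture. The 3 control libraries carry the genotype label WT and the 3 KO libraries the label KO, for cells deficient in RTF1. RTF1 belongs to, or acts beside, the PAF1 complex on elongating RNA polymerase II and promotes ubiquitination of histone H2B. The labels used here do not give the strain, age, sex or the way in which Rtf1 was deleted, and they do not say whether libraries of a group came from separate animals, so p-values measure the spread between these libraries only.

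Total counts ranged from 16489813 to 51271226 per library. Rtf1 itself, the targeted gene, was at 88.3 to 94.0 CPM (counts scaled to the size of each library) in control and at 26.2 to 45.3 CPM in KO, where the mean was 0.372 times that of control. The libraries numbered 3 in each group held 11376 and 5147 counts of 4 Y-linked genes, whereas the others held 1 to 3, so replicate 3 of both groups stands apart from the rest. T cell and Th17 markers (9 genes) summed to 2749 to 3306 CPM in control and 1715 to 2175 CPM in KO. Il17a, Il17f, Ccr6 and Cd4 were called lower and Cd3e and Cd3g higher, with Cd4 at 486 ± 48.6 and 254 ± 36.04 CPM (SD, n = 3). Marker lists of B cells, myeloid, dendritic, CD8 and NK, erythroid, and fibroblast and endothelial cells each summed to at most 41.0 CPM in any library.

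GPI-anchored proteins have no segment that crosses the membrane. A hydrophobic tail at the end of the precursor is removed in the endoplasmic reticulum and replaced by a preassembled lipid anchor, which places the protein in cholesterol-rich membrane patches beside Src-family kinases. Ly6 proteins share a small fold held by disulphide bonds, and several are induced by interferons and mark activated or memory T cells. Thy-1 (CD90) is the classical marker of mouse T cells, CD52 is a very short and heavily glycosylated peptide, CD48 is the ligand of CD2 and of 2B4, and CD24 (heat-stable antigen) is a mucin-like protein lost as thymocytes mature.

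The part of each coding sequence that specifies this tail is shown because it is what the 8 genes have in common, and because it shows how alike 3 of them are. The last 60 coding bases before the stop codon are given 5′ to 3′, taken from GENCODE M21 transcripts (GRCm38). Capitals mark a T in the middle position of a codon, which in the genetic code always specifies a hydrophobic residue (phenylalanine, leucine, isoleucine, methionine or valine).
Ly6a: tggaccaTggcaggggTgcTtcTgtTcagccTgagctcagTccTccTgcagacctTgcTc
Ly6c1: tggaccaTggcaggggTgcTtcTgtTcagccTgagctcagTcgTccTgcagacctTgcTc
Ly6c2: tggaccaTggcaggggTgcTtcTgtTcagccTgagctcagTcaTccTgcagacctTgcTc
Ly6e: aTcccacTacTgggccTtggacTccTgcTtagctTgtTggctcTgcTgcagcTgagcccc
Thy1: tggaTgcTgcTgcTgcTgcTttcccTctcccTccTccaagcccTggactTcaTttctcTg
Cd52: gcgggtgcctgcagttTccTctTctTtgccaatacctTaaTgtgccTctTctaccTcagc
Cd48: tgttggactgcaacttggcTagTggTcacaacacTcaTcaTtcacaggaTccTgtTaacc
Cd24a: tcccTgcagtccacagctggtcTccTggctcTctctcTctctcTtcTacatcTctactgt
Every stretch lies in 1 exon, the last coding exon, at chr15:74995265-74995324 for Ly6a, chr15:75045405-75045464 for Ly6c1 and chr15:75108546-75108605 for Ly6c2 (all minus strand), and chr15:74958651-74958710 for Ly6e (plus strand). Those of the other genes are at chr9:44047389-44047448 for Thy1 (plus), chr4:134093730-134093789 for Cd52 (minus), chr1:171704815-171704874 for Cd48 (plus) and chr10:43582703-43582762 for Cd24a (plus). Of the last 20 codons, 8 in Cd24a, 9 in Cd48 and Cd52, 11 in Ly6a, Ly6c1 and Ly6c2, 12 in Ly6e and 13 in Thy1 had a middle T. Over 21500 genes with a complete coding sequence the median was 5, and 0.479% reached the number of Thy1 while 12.7% reached that of Cd24a. The stretches of Ly6a, Ly6c1 and Ly6c2 differed from one another by 1 base of 60, whereas that of Ly6e differed from that of Ly6a by 40.

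The close copies matter for what a read can tell. Over their whole coding sequences Ly6c1 and Ly6c2 were identical at 384 of 393 bases (97.7%), Ly6a and Ly6c1 at 81.8% of aligned positions, and Ly6a and Ly6e at 52.7%. Of all 50-base stretches in the transcripts of a gene, 32.8% for Ly6c1, 19.0% for Ly6a and 14.5% for Ly6c2 also occur in transcripts of another gene, mainly of each other. The division of counts among these 3 genes is therefore uncertain. For Ly6e, Thy1 and Cd48 no stretch is shared, for Cd24a 2.75% are shared, and for Cd52 8.89% are shared with Crybg2, which overlaps 14.5% of its exonic bases on the opposite strand. The strand setting of the counting is not given in the sources used here.

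Ly6c1 rose in every KO library. It encodes a Ly-6C antigen, a surface marker of memory CD4 and CD8 T cells and of inflammatory monocytes. The control libraries held 0.426, 0.908 and 2.80 CPM in replicates 1, 2 and 3, from 7, 44 and 118 counts. The KO libraries held 10.6, 11.1 and 23.6 CPM, from 280, 416 and 465 counts. Every KO library thus lay above every control library, and replicate 3 was the highest of its group on both sides. The means were 1.38 ± 1.26 in control and 15.1 ± 7.38 CPM in KO (n = 3, SD), and the log2 ratio was 3.36 (edgeR adjusted p = 0.00236, SE 0.591), or 10.3-fold. The size rests in part on control replicate 3: without that library the change was 19.3-fold, and without KO replicate 3 it was 7.51-fold, called in each case.

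Ly6c2, its near-identical copy, was at the limit of detection in control and detected in KO. The control libraries held 0, 1 and 3 counts and the KO libraries 30, 37 and 20 counts, which correspond to 1.14, 0.988 and 1.02 CPM. The groups did not overlap, and the gene passed the filter on low counts through the KO libraries alone. Against a floor of 3 counts per control library, the KO mean was at least 9.96-fold higher. This bound was 15.7-fold without control replicate 1, 8.26-fold without control replicate 2 and 8.58-fold without control replicate 3. It moves here only with the depth of the control libraries, so these values do not test the change. The gene was called higher (edgeR adjusted p = 0.00066), but a gene that enters the test only through the group where it is high had to differ, so the call adds nothing to the counts.

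Ly6c1 supplied nearly all counts of the pair, between 90.3% (95% exact binomial interval 86.5 to 93.4%) in KO replicate 1 and 95.9% (93.7 to 97.5%) in KO replicate 3. The intervals cover counting error only. In control the share ran from 97.5% to 100%, the latter from 7 counts. Summing the pair removes only the division of counted reads between these copies. The sum rose from 1.41 ± 1.29 to 16.2 ± 7.35 CPM (n = 3, SD). The log2 ratio was 3.43 (edgeR adjusted p = 0.00205, SE 0.583), or 10.8-fold. Without control replicate 3 this was 20.2-fold, and without KO replicate 3 it was 8.05-fold. The sum does not account for stretches shared with Ly6a, a far more abundant gene. Nor does it restore reads that the counting may have left out as ambiguous, since its settings are not given. The part of such reads in the rise was not tested. Monocytes and dendritic cells also carry Ly-6C. The summed myeloid markers (9 genes) ran from 1.16 to 1.54 CPM in control and from 2.40 to 4.06 CPM in KO, and the dendritic markers (5 genes) from 1.80 to 3.56 and from 8.69 to 10.6 CPM. Of the myeloid markers, Itgam, Adgre1 and S100a8 were near 0 (at most 0.0474 CPM in either group mean). Lyz2 was at 0.0454 ± 0.0477 CPM in control and 0.816 ± 0.808 CPM in KO (n = 3, SD). S100a9, Mpo and Fcgr3 had control means of 0, 0.0158 and 0.545 CPM and KO means of 0.0900, 0.0615 and 0.211 CPM. Csf1r rose from 0.361 ± 0.135 to 1.18 ± 0.535 CPM (edgeR adjusted p = 0.0256), Cd14 was at 0.302 ± 0.172 and 0.821 ± 0.338 CPM and not called (edgeR adjusted p = 0.0646), and Xcr1 rose from 0.635 ± 0.239 to 4.91 ± 0.837 CPM (SD, n = 3; edgeR adjusted p = 0.00043). The dendritic markers Zbtb46, Itgax, Flt3 and Siglech had control means of 1.82, 0.0340, 0.352 and 0 CPM. Their KO means were 3.75, 0.488, 0.296 and 0.0127 CPM. Fcgr3 and Zbtb46 were not called. The CD8 and NK markers (7 genes) summed to 7.72 to 11.6 CPM in control and 9.11 to 16.1 CPM in KO. Nkg7 rose from 0.338 ± 0.208 to 2.53 ± 0.690 CPM (SD, n = 3; edgeR adjusted p = 0.00209). Eomes rose from 0.0991 ± 0.0574 to 1.55 ± 0.603 CPM (SD, n = 3; edgeR adjusted p = 0.00095). Cd8a, Cd8b1 and Klrk1 were not called, and Klrb1c and Ncr1 had no counts. The part of monocytes, dendritic cells, CD8 T cells and NK cells in the Ly6c1 result was not tested.

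**Figure D1:**
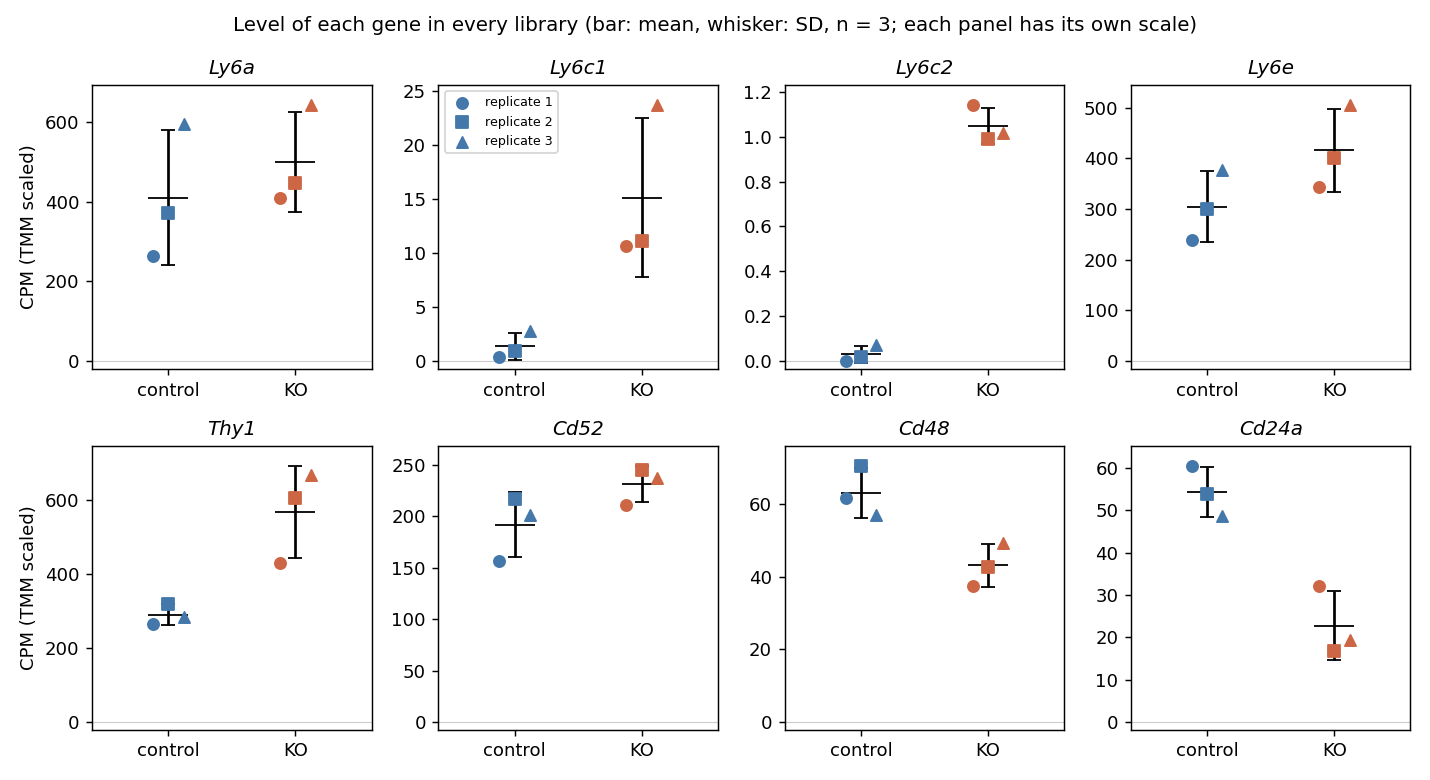
TMM-scaled CPM (y axis, a separate linear scale from 0 in each panel) of the 8 genes in the 3 control (blue) and 3 KO (orange) libraries, with the replicate number as the marker shape, the mean as a horizontal line and the SD as whiskers. The KO points of Ly6c1, Ly6c2 and Thy1 all lie above the control points, those of Cd48 and Cd24a all below, and those of Ly6a, Ly6e and Cd52 overlap them.

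The promoters of the 2 Ly6c genes are shown because both genes were higher in KO and lie in the same gene cluster. The RefSeq table (GRCm38.p6) held promoters for 3 of the 8 genes, Ly6c1, Ly6c2 and Cd48. It listed 2 start sites each for Ly6c1 and Ly6c2 and 1 for Cd48. The site nearest the GENCODE start was used, and the windows of the other sites are not described. The 250 bases before the chosen start site are printed 5′ to 3′, and capitals mark matches to the motifs named after them.
Ly6c1, chr15:75048838-75049087, minus strand: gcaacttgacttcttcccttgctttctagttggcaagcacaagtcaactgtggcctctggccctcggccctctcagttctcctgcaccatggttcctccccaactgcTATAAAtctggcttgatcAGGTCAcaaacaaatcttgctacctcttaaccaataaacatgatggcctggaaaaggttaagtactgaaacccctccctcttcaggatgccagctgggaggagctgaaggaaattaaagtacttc
Ly6c2, chr15:75111972-75112221, minus strand: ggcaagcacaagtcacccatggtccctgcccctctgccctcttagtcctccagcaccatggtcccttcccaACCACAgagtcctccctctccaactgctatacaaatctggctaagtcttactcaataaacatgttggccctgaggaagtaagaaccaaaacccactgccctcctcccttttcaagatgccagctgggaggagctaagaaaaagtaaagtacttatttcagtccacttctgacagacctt
The windows could be aligned over 228 columns, in which 71.9% of positions were identical. Each was searched on both strands for the interferon-stimulated response element (a pair of GAAA blocks that are 2 bases apart) and the STAT site (TTCNNNGAA). The other letters searched were TGTGGT for RUNX proteins, TGANTCA for AP-1, AGGTCA for ROR receptors and TATAAA for the TATA box, and none of these motifs contains another. Ly6c1 held a TATA match that begins 143 bases and a ROR match that begins 125 bases before the start site. Ly6c2 held 1 match, to RUNX, on the opposite strand and 179 bases before the start. The Cd48 window (chr1:171681742-171681991, plus strand) held 1 match, to RUNX. None of these 3 windows held the interferon or STAT letters, which occur in 2.98% and 7.02% of the 32851 windows of the table. RUNX, ROR and TATA letters occur in 14.0%, 14.0% and 12.4% of them. The window of Ly6g, a gene of the same cluster outside the 8, was also searched. It aligned with that of Ly6c1 over 229 columns, in which 75.1% of positions were identical. Its only matches, to TATA and ROR, begin 99 and 81 bases before its start site. These are matches of letters in short windows, not measured binding.

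Ly6a and Ly6e, the abundant Ly6 genes, were higher in KO within each replicate number but overlapped between the groups. Ly6a encodes Sca-1, a marker of stem cells and of activated and memory T cells. It was at 263, 371 and 595 CPM in control replicates 1, 2 and 3, and at 410, 447 and 642 CPM in the KO replicates. Control replicate 3 thus exceeded KO replicates 1 and 2, and the spread within each group was as wide as the difference. The means were 409.6 ± 169 and 499.7 ± 124 CPM (n = 3, SD), and the log2 ratio was 0.29 (edgeR adjusted p = 0.439, SE 0.287), which was not called. Between libraries of equal number the KO level was 1.56, 1.21 and 1.079 times the control level. The labels do not say whether equal numbers mark pairs. With the replicate number as a block, the log2 ratio was 0.34 and was called (edgeR adjusted p = 0.0454, SE 0.126). Without control replicate 1 the log2 ratio without a block was −0.0080.

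Ly6e encodes a Ly6 protein of thymocytes and many other cells that is known for restricting the entry of some viruses. Control libraries held 238, 300.0 and 377 CPM and KO libraries 343, 401 and 504 CPM, again with replicate 3 highest in both groups. The log2 ratio was 0.45 (edgeR adjusted p = 0.0931, SE 0.198), and KO was 1.44, 1.34 and 1.34 times the control of equal number. The gene was called with the block (0.45, SE 0.103, edgeR adjusted p = 0.00491). It was also called in libraries numbered 1 and 2 alone (0.46, edgeR adjusted p = 0.0413), with library size as the only scaling (0.54, edgeR adjusted p = 0.0440) and without control replicate 3 (0.57, edgeR adjusted p = 0.0374).

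Thy1 about doubled. Its product, Thy-1, is among the most abundant GPI-anchored proteins of mouse T cells and can modulate T cell receptor signals. Control libraries held 264, 319 and 284 CPM and KO libraries 428, 606 and 666 CPM. All KO libraries lay above all control libraries, and the KO libraries were spread more widely. The means were 289 ± 27.9 and 567 ± 124 CPM (n = 3, SD), and the log2 ratio was 0.97 (edgeR adjusted p = 0.00271, SE 0.176). It was called in each of the 15 alternatives, with log2 ratios between 0.82 and 1.13.

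Cd52 overlapped between the groups. Its glycopeptide is the antigen bound by antibodies that deplete lymphocytes, and its shed form can restrain T cells. It was at 157, 217 and 201 CPM in control and at 211, 245 and 237 CPM in KO. Control replicate 2 exceeded KO replicate 1. The log2 ratio of 0.27 (edgeR adjusted p = 0.155, SE 0.144) was not called, but it was with the block (0.28, SE 0.106, edgeR adjusted p = 0.0492). As a ratio of CPM, Thy1 stood at 1.41 to 1.69 times Cd52 in control and at 2.03 to 2.81 times in KO.

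Cd48 and Cd24a fell. Cd48 encodes the adhesion molecule that engages CD2 in mouse. It was at 61.6, 70.5 and 57.2 CPM in control and at 37.5, 42.7 and 49.3 CPM in KO, without overlap. The means were 63.1 ± 6.80 and 43.2 ± 5.89 CPM (n = 3, SD), and the log2 ratio was −0.55 (edgeR adjusted p = 0.0123, SE 0.140). The call was lost without KO replicate 2 (−0.54, edgeR adjusted p = 0.0517) and held in the other 14 alternatives. Cd24a, on T cells mainly a marker of immature and activated cells, fell further. It was at 60.4, 53.9 and 48.6 CPM in control and at 32.004, 16.7 and 19.4 CPM in KO. The means were 54.3 ± 5.92 and 22.7 ± 8.16 CPM (n = 3, SD), and the log2 ratio was −1.26 (edgeR adjusted p = 0.00299, SE 0.233), with a KO mean 0.418 times that of control. It was called in all 15 alternatives, with log2 ratios between −1.59 and −1.07. B cells, erythroid and myeloid cells also carry CD24. The B cell markers (6 genes) summed to 1.24 to 3.18 CPM in control and 1.79 to 2.85 CPM in KO. Of these Cd79b fell from 0.603 ± 0.307 to 0.158 ± 0.0933 CPM (n = 3, SD; edgeR adjusted p = 0.0236), Cd79a was at 1.35 ± 0.625 and 1.85 ± 0.391 CPM and not called, and Ms4a1 was near 0. Erythroid markers (6 genes) summed to 1.18 to 2.92 and 0.988 to 2.03 CPM, nearly all from Alas2. The part of such cells in the Cd24a result was not tested.

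Counted together, 3 of the 8 genes were called higher (Ly6c1, Ly6c2 and Thy1), 2 lower (Cd48 and Cd24a) and 3 in neither direction. Over all 14268 tested genes, 23.2% passed as higher and 22.9% as lower, 46.1% in all, so a call is common in this comparison. Ly6c2 is in that count although it entered the test through its KO libraries alone. The groups did not overlap for 5 of the 8 genes, against 57.9% of the tested genes. With the replicate block 6 were called higher and 2 lower, where 27% and 26.4% of all tested genes were called, 53.5% in all. The median log2 ratio was 0.37, also with Ly6c2 at its bound, against 0.013 over all tested genes. In libraries numbered 1 and 2 alone, which leaves out both libraries with Y-linked counts, Ly6e was called in addition to the 5 genes. The summed level of the 8 genes was 1314 ± 261 CPM in control and 1795 ± 336 CPM in KO (SD, n = 3). The libraries numbered 1, 2 and 3 summed to 1045, 1333 and 1566 CPM in control and to 1473, 1770 and 2143 CPM in KO, so the groups overlapped while KO was higher at each number.

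**Figure D2:**
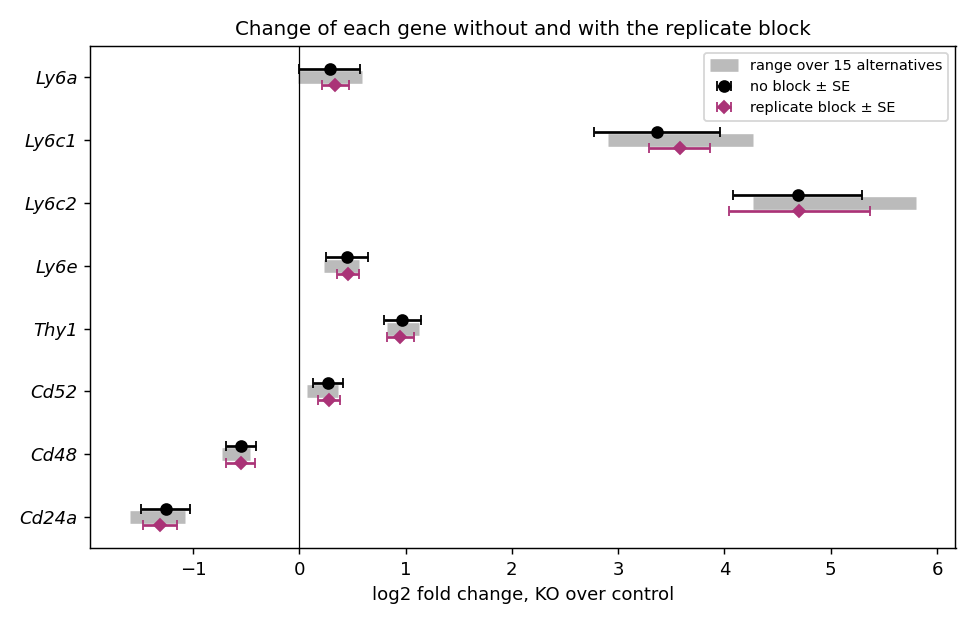
Log2 ratio of KO over control (x axis) for each of the 8 genes (y axis) in the fit without a block (black circles) and with the replicate block (purple diamonds), with SE, over a grey bar for the range of 15 alternatives. Ly6a lies at 0.29 and 0.34 with a visibly smaller SE under the block. The position of Ly6c2 depends on how near-zero counts are treated and is not a bound.

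The order of the genes by level barely changed. In CPM per kb of the principal transcript, the control means were 429 for Ly6a, 373 for Cd52, 167 for Thy1, 134 for Ly6e, 53.2 for Cd48, 29.9 for Cd24a, 1.63 for Ly6c1 and 0.0373 for Ly6c2. The KO means were 523 for Ly6a, 449.5 for Cd52, 327 for Thy1, 182 for Ly6e, 36.4 for Cd48, 17.9 for Ly6c1, 12.5 for Cd24a and 1.27 for Ly6c2. Ly6c1 thus stood below Cd24a in control and above it in KO, although their KO libraries overlapped (12.6 to 28.0 and 9.21 to 17.6 CPM per kb). Libraries also overlapped between the neighbours Ly6a and Cd52 in both groups and between Thy1 and Ly6e in control. The order was the same when all annotated exons were used as the length.

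The 4 Ly6 genes lie within 157 kb on chromosome 15 (GRCm38), in the order Ly6e (chr15:74955051-74959905, plus strand), Ly6a (chr15:74994877-74998031), Ly6c1 (chr15:75044018-75048830) and Ly6c2 (chr15:75108158-75111970), the latter 3 on the minus strand. The others are each on a chromosome of their own, Thy1 at chr9:44043384-44048579, Cd52 at chr4:134082448-134095082, Cd48 at chr1:171682009-171705258 and Cd24a at chr10:43578284-43584265. The table held 27 further genes that start within 500 kb of Ly6e. Of these, 10 had enough counts to test, with 8 called higher and 1 lower, against 23.2% and 22.9% of all tested genes. All were low, with KO means of at most 15.1 CPM, and 4 of the 10 passed the filter with all 3 KO libraries but fewer than 3 control libraries at its level, so this count is a description only. Those named Ly6 or Lynx were Ly6i (0.622 ± 0.264 and 4.79 ± 1.02 CPM, log2 ratio 2.90, edgeR adjusted p = 0.00066), Ly6g (0.492 ± 0.625 and 4.54 ± 1.31 CPM, 3.11, adjusted p = 0.0109), Ly6k (0.588 ± 0.246 and 1.58 ± 0.515 CPM, 1.35, adjusted p = 0.0329) and Lynx1 (1.39 ± 0.631 and 3.16 ± 0.709 CPM, 1.18, adjusted p = 0.0380; SD, n = 3). A further 2 genes of the Ly6 family were tested there. 2010109I03Rik was called higher, at 0.0396 ± 0.0686 and 0.631 ± 0.270 CPM, and reached the level of the filter in 0 control libraries, while Slurp1 was at 0.398 ± 0.263 and 0.192 ± 0.130 CPM (n = 3, SD; log2 ratio −0.89, edgeR adjusted p = 0.329) and was not called. These genes were named after their values were seen. Ly6g is the classical neutrophil marker, and 0.448% of its 50-base stretches are shared with another gene. For Ly6k the share is 32.7%, with Gm17189, which overlaps it on the opposite strand. The gene called lower was Them6, at 10.2 ± 3.02 and 4.28 ± 0.608 CPM (n = 3, SD; log2 ratio −1.26, edgeR adjusted p = 0.00475), also named after its values were seen.

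**Figure D3:**
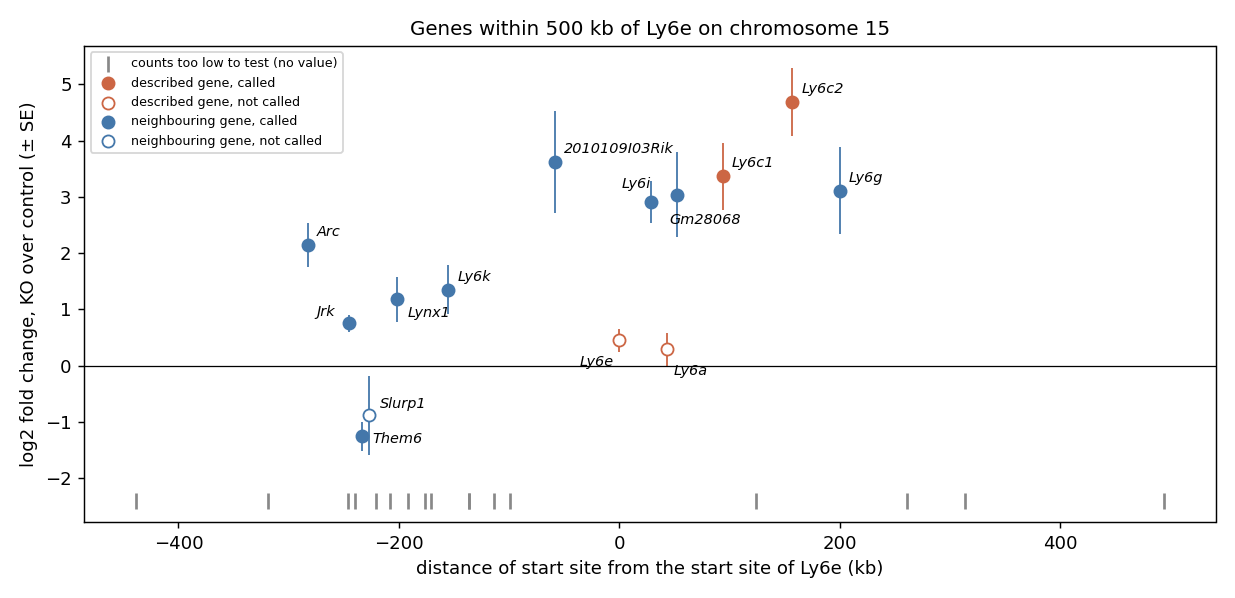
Log2 ratio of KO over control with SE (y axis) for genes starting within 500 kb of the start site of Ly6e, by distance in kb (x axis), with filled points for called genes, orange for the described genes and grey ticks for genes with counts too low to test. Ly6a and Ly6e lie at 0.29 and 0.45, while Ly6i, between them on the map, lies at 2.90 and Ly6c1 at 3.36. The position of Ly6c2 depends on how near-zero counts are treated.

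Within 500 kb of the other 4 genes calls among the neighbours went both ways. The numbers higher and lower were 4 and 7 of 25 tested around Thy1, 5 and 6 of 22 around Cd52, 9 and 4 of 33 around Cd48, and 1 and 4 of 8 around Cd24a. Over all tested genes the shares were 23.2% and 22.9%.

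For every list below, the shares over all tested genes were 23.2% called higher, 22.9% called lower and 46.1% in all. Other members of the Ly6 family (31 listed genes, among them Ly6i, Ly6g, Ly6k, Lynx1, 2010109I03Rik and Slurp1 described above) were mostly silent. Of the 9 that could be tested, 6 were called higher and 0 lower, in part through genes with too few control counts to pass the filter on their own. The genes called higher were Plaur and, repeating the calls given above, Ly6i, Ly6g, Ly6k, Lynx1 and 2010109I03Rik. Plaur, the urokinase receptor and a GPI-anchored relative of the Ly6 proteins, was the only one of them with a mean of at least 5 CPM, and rose from 8.01 ± 1.65 to 74.1 ± 10.96 CPM (n = 3, SD; log2 ratio 3.21, edgeR adjusted p = 4.8e-05). Among 24 tested genes for other GPI-anchored surface proteins, 6 were called higher and 7 lower, with a median log2 ratio of −0.19. Sema7a, a semaphorin, rose from 30.0 ± 12.6 to 154 ± 17.8 CPM (2.36, edgeR adjusted p = 0.00058). Nt5e, which encodes the ecto-enzyme CD73, rose from 41.2 ± 19.5 to 136 ± 66.7 CPM (1.73, edgeR adjusted p = 0.0145), a call lost without KO replicate 2 (1.40, edgeR adjusted p = 0.0590). Cd55, which encodes a complement inhibitor, rose from 4.603 ± 1.51 to 12.1 ± 0.849 CPM (1.38, edgeR adjusted p = 0.00268; n = 3 and SD for each).

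Genes of the enzymes that build the GPI anchor were detected broadly, with 28 of 29 listed genes tested. Of these, 14 were called higher and 5 lower, against 23.2% and 22.9% of all tested genes, with a median log2 ratio of 0.39. Without control replicate 1 the number called higher was 8, without KO replicate 2 the numbers were 9 and 3, and without KO replicate 3 the number called lower was 3. Piga, the catalytic subunit for the first step of anchor synthesis, fell from 39.6 ± 3.49 to 14.9 ± 1.82 CPM (SD, n = 3; −1.41, edgeR adjusted p = 0.00026). Pigc, another subunit of the same enzyme, rose from 10.5 ± 0.735 to 22.95 ± 4.57 CPM (1.13, edgeR adjusted p = 0.00158). Pigv, a mannosyltransferase of the pathway, rose from 9.29 ± 1.96 to 22.4 ± 2.85 CPM (1.27, edgeR adjusted p = 0.00131). Piga and Pigc, subunits of 1 enzyme, thus moved in opposite directions.

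Of 12 tested genes for remodelling, transport and release of the anchor, 4 were called higher and 1 lower. Pgap1, which removes an acyl chain from the new anchor, fell from 10.98 ± 1.61 to 3.62 ± 0.765 CPM (SD, n = 3; −1.59, edgeR adjusted p = 0.00113). Pgap2, which acts in exchange of the lipid in the Golgi, rose from 30.9 ± 1.97 to 52.6 ± 4.30 CPM (0.77, edgeR adjusted p = 0.00151), and Tmem8, also called Pgap6, rose from 6.71 ± 0.417 to 15.6 ± 3.15 CPM (1.22, edgeR adjusted p = 0.00162). The number called higher was 2 without control replicate 1, control replicate 2, KO replicate 2 or KO replicate 3.

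Of the receptors of CD48, Cd2 was lower in KO and Cd244 was barely detected. Of 8 tested genes of the SLAM family and its adaptors, with Cd2, 4 were called lower and 0 higher. Without KO replicate 1, 2 were called lower, and without control replicate 3, 1 was called higher. Cd2, the receptor of CD48, was lower in KO at 245 ± 14.4 CPM than in control at 392 ± 54.6 CPM (SD, n = 3; −0.68, edgeR adjusted p = 0.00401) and was named after its values were seen. Sh2d1a, which encodes the adaptor SAP, fell from 70.3 ± 5.52 to 24.2 ± 3.05 CPM (−1.54, edgeR adjusted p = 0.00014). Slamf6 fell from 6.44 ± 0.561 to 3.86 ± 0.603 CPM (−0.73, edgeR adjusted p = 0.0283). Its call was lost in libraries numbered 1 and 2 alone (edgeR adjusted p = 0.0848) and without control replicate 2, KO replicate 1 or KO replicate 3 (edgeR adjusted p = 0.0572, 0.0621 and 0.0961). Slamf7 had 25.4 ± 25.7 CPM in control and 5.17 ± 2.59 CPM in KO (−2.32, edgeR adjusted p = 0.0200). Control replicate 3 held 55.0 CPM against 10.3 and 10.9 CPM in the other control libraries, and without it the log2 ratio was −1.11. The call was lost with limma-voom (adjusted p = 0.0551) and without KO replicate 1 or KO replicate 2 (edgeR adjusted p = 0.0605 and 0.0776). Cd244, the receptor 2B4, was at 0.308 and 0.390 CPM and was not called.

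Of 10 tested genes of raft and Src-kinase signalling, 1 was called higher and 4 lower. Lck, the kinase that associates with GPI-anchored proteins and with CD4, fell from 507 ± 72.2 to 334 ± 25.03 CPM (SD, n = 3; −0.60, edgeR adjusted p = 0.00785). Sit1, a transmembrane adaptor, fell from 11.4 ± 2.41 to 6.02 ± 0.178 CPM (−0.93, edgeR adjusted p = 0.00717). Flot2, a scaffold of membrane patches, rose from 75.3 ± 5.58 to 113 ± 10.8 CPM (0.59, edgeR adjusted p = 0.00389). Without control replicate 3, 2 genes of this list were called higher.

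Of 16 tested regulators of the interferon response, which is known to induce Ly6a, Ly6c and Ly6e, 11 were called higher and 1 lower, with a median log2 ratio of 0.70. Irf1 rose from 34.5 ± 6.28 to 197 ± 37.4 CPM (SD, n = 3; 2.51, edgeR adjusted p = 7.9e-05), Irf7 from 6.50 ± 4.58 to 26.7 ± 7.49 CPM (2.01, edgeR adjusted p = 0.00567) and Usp18, an inhibitor of the type I receptor, from 13.7 ± 4.71 to 49.2 ± 15.1 CPM (1.86, edgeR adjusted p = 0.00167). Without control replicate 3 the log2 ratio of Irf7 was 2.72. None was called lower without control replicate 1, KO replicate 2 or KO replicate 3. Their part in the levels of the Ly6 genes was not tested.

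For comparison, of 24 tested T cell surface proteins that cross the membrane, 6 were called higher and 9 lower, with a median log2 ratio of −0.27. Cd53, a tetraspanin, fell from 621 ± 217 to 244 ± 53.1 CPM (SD, n = 3; −1.35, edgeR adjusted p = 0.0031), Cd27, a costimulatory receptor, fell from 14.9 ± 2.91 to 7.15 ± 0.459 CPM (−1.06, edgeR adjusted p = 0.00266), and Cd37, another tetraspanin, rose from 65.6 ± 9.71 to 135 ± 6.86 CPM (1.04, edgeR adjusted p = 0.00054). Both kinds of surface gene thus held calls in both directions, and whether they differed was not tested.

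**Figure D4:**
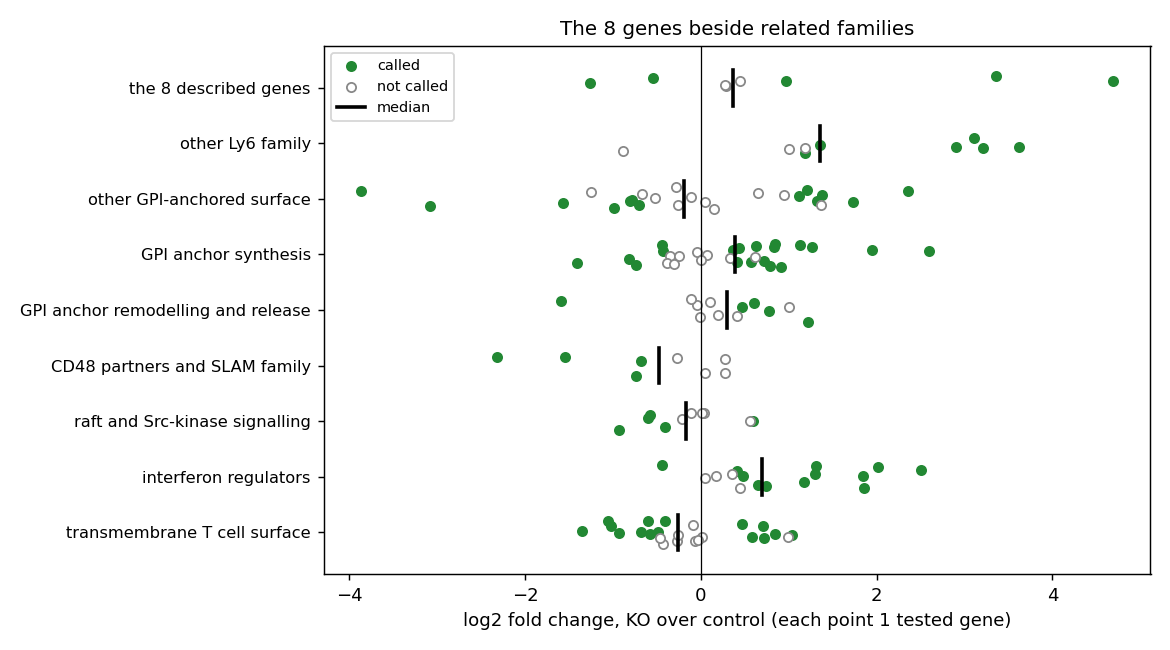
Log2 ratio of KO over control (x axis) of every tested gene, 1 point each, in the 8 described genes and 8 related lists (rows), with filled points for called genes and a black line at the median. The described genes spread from −1.26 for Cd24a to the fitted value of 4.69 for Ly6c2, around a median of 0.37.

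The genes whose log2 CPM over the 6 libraries was most like that of each gene were sought among those averaging 5 CPM or more. For Thy1 these were Slc25a20, Tmem234 and Srd5a3 (Pearson r 0.999, 0.997 and 0.997), and for Cd24a Smyd2, Chml and Rabl3 (0.999, 0.999 and 0.998). Those of Ly6c1 were Il13ra1, Sp100 and Lmtk2 (0.998, 0.996 and 0.995), and those of Ly6c2 Sbno1, Dapp1 and Gpatch2l (0.998, 0.997 and 0.995). Ly6a was most like Adprm, Edem1 and Map4k4 (0.984, 0.979 and 0.973), Ly6e like Ctse, Nipsnap2 and Samsn1 (0.993, 0.992 and 0.990), Cd52 like Plcl2, Cnpy2 and Mrpl32 (0.987, 0.980 and 0.973) and Cd48 like Acsl1, Sdf2l1 and Myo1g (0.985, 0.976 and 0.976). The 6 points of each correlation share the group difference and the libraries. An r over 0.95 was reached by 707 genes for Cd24a, 693 for Ly6c2, 560 for Thy1 and 430 for Ly6c1. For Ly6e, Ly6a, Cd48 and Cd52 the numbers were 63, 23, 20 and 16. Ly6c2 held at most 3 counts in any control library, so its log2 CPM mainly separates the groups. A high r with genes that also separate them was fixed in advance, and the 3 genes named for Ly6c2 are not particular to it. Those named for Cd24a, Thy1 and Ly6c1 are likewise among the 707, 560 and 430 genes over 0.95 and are not particular to these genes.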

How the data were processed

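The deposited table holds whole-number counts per gene symbol for 6 libraries of total RNA, made by the authors. The submitters' processing notes name STAR, featureCounts, DESeq2 and the build mm10, without versions or settings. Columns were assigned through the description of each sample, leaving 0 columns and 0 lines without a match. KO was compared with control by edgeR's quasi-likelihood test (edgeR 4.0.16, R 4.3.3) with TMM factors and filterByExpr, on 14268 genes holding 99.9% of counts. Genes with a Benjamini-Hochberg adjusted p under 0.05 were called. The SE is the absolute log2 ratio over the square root of F. The fit was tested on simulated data. Total counts of 16489813 to 51271226 set the precision of low genes, with 3 counts used as the floor.

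The 8 genes and the lists were chosen with earlier results of these data known. Named besides them are, per list, the 3 called genes with the largest change among those with a mean of at least 5 CPM, and per gene the 3 most alike. Deviations from the group mean correlated at 0.270, 0.130 and 0.379 between libraries of equal number (other pairs −0.390 to 0.204). The 0.130 of the libraries numbered 2 lay within the range of the other pairs. The 0.379 belongs to the libraries numbered 3, which share Y-linked counts. The numbers come from the titles, and pairing by them is an assumption that these values do not settle. The alternatives were DESeq2 1.42.0, limma-voom (limma 3.58.1), other scalings and filters, the replicate block, libraries numbered 1 and 2 alone, and each library left out. Positions, lengths and coding sequences are from GENCODE M21 (GRCm38, the build of mm10), which held 98.2% of the symbols, and promoters from RefSeq (GRCm38.p6).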

Additional observations from a re-analysis of the deposited data

How the results depend on the processing

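The directions of the 8 genes held in each of the 15 alternatives except that of Ly6a, whose log2 ratio was −0.0080 without control replicate 1. Its range with 1 library left out was −0.0080 to 0.59. With the replicate block, Ly6a (0.34), Ly6e (0.45) and Cd52 (0.28) were called, so that 6 of the 8 genes were called higher, and the block changed no call of the other 5. The calls under the block rest on reading equal numbers as pairs, which the labels do not state. Ly6e was also called with scaling by library size alone (0.54) and in libraries numbered 1 and 2 alone (0.46), and ran from 0.24 to 0.57 with 1 library left out, where it was called without control replicate 3. Cd48 ran from −0.68 to −0.46 with 1 library left out and lost its call without KO replicate 2, so that the number of the 8 genes called lower ranged from 1 to 2.

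Over all genes, those called lower ranged from 2170 (without KO replicate 2) to 3700 with 1 library left out. With library size as the only scaling, 3 genes of GPI anchor synthesis were called lower. With 1 library left out, the numbers called higher and lower there were 8 to 14 and 3 to 7. For remodelling and release, 2 were called higher and 2 lower without a filter on low counts, 2 were called lower with a mean count of at least 10, and with 1 library left out 2 to 4 were called higher. For the SLAM family, 1 was called higher without a filter, with the block and in libraries numbered 1 and 2 alone, and with 1 library left out 0 to 1 were called higher and 2 to 4 lower. For raft and Src-kinase signalling, 2 were called higher with library size only, with DESeq2, without a filter, with the block and in libraries numbered 1 and 2 alone, and 1 to 2 with 1 library left out. Interferon regulators called lower numbered 0 to 1 with 1 library left out. The cause of these shifts was not tested. The control libraries held at most 3 counts of Ly6c2, so only a bound on its change can be given.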
